A study of Mus musculus with 21 samples.

Results

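The NRF2 oxidative stress genes described here are 10 genes picked by symbol from the 19096 genes of the deposited gene matrix: the transcription factor gene Nfe2l2, its inhibitor gene Keap1, and the antioxidant genes Nqo1, Hmox1, Gclc, Gclm, Txnrd1, Srxn1, Slc7a11 and G6pdx. All 10 were found, and all 10 passed the filter on low counts. Nfe2l2 and Keap1 are the regulators of the pathway, and the other 8 are among its usual targets. The rule takes genes by name and filters on no measured value. The 10 genes were, however, chosen with earlier results of these data known. Their counts set against all genes below are therefore not independent support.

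The samples are 21 heart RNA libraries from male C57BL/6NJ mice that entered the study at 8 to 10 weeks of age. For 10 weeks mice ate either chow or a high-fat diet (HFD, 60% of kcal as fat), by random allocation, and a second random allocation gave them a retro-orbital injection of AAV-Renin, renin carried by an adeno-associated virus, or of null vector. Hearts were freeze-clamped 6 weeks after the injection. The 4 groups are chow control (n = 4), chow with renin (n = 6), HFD control (n = 6) and HFD with renin (n = 5), and the last of these is what the study calls HFpEF, heart failure in which the ejection fraction is preserved. The sample labels call the controls "novirus" while the design text says that they received a null vector, so whether they carried a vector is not settled here. The promoter of the vector and the tissue it reached are not given in the sources used here. Each library's deposited table carries a code of its own, and the numbers of mice in the design text cover these group sizes, so libraries were taken as separate mice.

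NRF2, the protein of Nfe2l2, is a basic leucine zipper transcription factor. In unstressed cells KEAP1 holds it in the cytosol and passes it to a cullin-3 ubiquitin ligase for degradation. Oxidants and electrophiles modify cysteines of KEAP1, and NRF2 then accumulates, pairs with small MAF proteins in the nucleus and binds antioxidant response elements near genes for glutathione synthesis, thioredoxin recycling, quinone reduction, haem breakdown and NADPH supply. Because this control acts mainly on the protein, the mRNA level of Nfe2l2 is not a measure of NRF2 activity, and no protein was measured here.

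The core letters of the antioxidant response element are TGACNNNGC. These letters were searched on both strands of the RefSeq promoter windows (assembly GRCm38.p6, 250 bases before to 50 bases after each start). A window was present for 8 of the 10 genes, all except Hmox1 and Gclc. These genes have 10 windows, and the core was found in 5 of the 10, each of a different gene, against 12.4% of all 32851 windows. The core followed by a further A was found in 1 of the 10, against 3.04% of all windows. The matches are shown because they are the places in these promoters that carry the letters of the element. The matching 9 bases are in capitals on the strand of the gene, which also shows the element's reverse complement where it lies on the other strand.
Nfe2l2, chr2:75704860-75704913 (minus strand): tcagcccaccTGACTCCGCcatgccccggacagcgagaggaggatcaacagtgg
Gclm, chr3:122245388-122245466 (plus strand): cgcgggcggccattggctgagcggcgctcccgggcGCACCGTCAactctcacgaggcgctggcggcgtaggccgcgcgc
Txnrd1, chr10:82859079-82859157 (plus strand): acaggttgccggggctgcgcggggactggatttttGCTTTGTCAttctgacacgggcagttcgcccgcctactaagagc
Srxn1, chr2:152105542-152105570 (plus strand): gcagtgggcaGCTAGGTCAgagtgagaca
G6pdx, chrX:74428919-74428947 (minus strand): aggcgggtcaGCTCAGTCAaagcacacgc

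Counted from the RefSeq start as 0, the match of Nfe2l2 begins at -240, that of Gclm at -134, that of Txnrd1 at -92, that of G6pdx at -57 and that of Srxn1 at 28. The matches of G6pdx and Srxn1 lie inside annotated UTRs of these genes (GENCODE M21), that of G6pdx because its annotated gene starts farther upstream than the RefSeq start used. The window of Txnrd1 with the match is the one where the 2 most abundant transcripts of that gene begin. The windows of Slc7a11, Nqo1 and Keap1 held no match. A match says only that the letters are there, and a window without one says nothing about elements farther away.

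Library totals were 18.6 to 21.2 M estimated reads in chow control, 24.2 to 27.1 M in chow with renin, 22.6 to 26.0 M in HFD control and 23.0 to 29 M in HFD with renin, so chow control was the shallowest group. The 10 cardiomyocyte markers had reads in every library and summed to 58714 to 70867 CPM (counts-per-million, here scaled by TMM factors) in chow control, 54467 to 56945 in chow with renin, 55132 to 64686 in HFD control and 49025 to 55730 in HFD with renin. In the same order, the 8 fibroblast markers summed to 666 to 1179 (median 695), 609 to 916 (640), 656 to 1486 (736) and 976 to 1537 CPM (1036). The endogenous renin gene Ren1 had reads in 4 of 21 libraries and at most 5 in any, so these counts do not check which hearts came from renin mice. The 6 atrial markers summed to 175 to 1165 CPM (median 253) in chow control, 78.1 to 934 (426) in chow with renin, 66.9 to 828 (107) in HFD control and up to 1015 (709) in HFD with renin. With an atrial score as a covariate, none of the calls of the 10 genes was lost. The 8 endothelial markers summed to 800 to 900, 694 to 849, 818 to 1066 and 820 to 978 CPM in the same order, and the 8 proliferation markers to 63.3 to 79.5, 79.0 to 106, 70.0 to 106 and 59.1 to 90.0 CPM. The part of the cardiomyocyte, fibroblast, endothelial and proliferation markers in the differences that follow was not tested. The 16 central nervous markers summed to 263 to 442 CPM in chow with renin, against 69.6 to 81.1 in chow control, 81.1 to 121 in HFD control and 65.1 to 115 in HFD with renin. The 12 markers of stimulated mesenchymal cells summed to 497 to 587 CPM in chow with renin, against 124 to 135, 114 to 145 and 110 to 127 in the same order. No central nervous or stimulated mesenchymal marker was at 0 in all libraries. The part of these other transcripts in the differences that follow for chow with renin cannot be told apart from renin on chow. In bulk tissue, fewer cells of a type and less RNA per cell also cannot be told apart.

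Between genes, levels were compared in transcripts-per-million (TPM), which account for transcript length. Nqo1 had the highest mean over the 21 libraries, 22.7 ± 4.62 TPM (SD), followed by Txnrd1 at 22.1 ± 3.73, Nfe2l2 at 20.0 ± 2.43 and Keap1 at 19.6 ± 1.44. The ranges of these 4 genes overlapped, from 14.3 to 32.0 TPM for Nqo1 to 17.4 to 22.3 TPM for Keap1, so their order does not exceed their spread. Srxn1 (10.5 ± 2.57 TPM, range 6.20 to 15.3) and Gclm (10.1 ± 2.73 TPM, range 6.29 to 16.3) came next in mean, and their ranges overlapped each other, that of Nqo1 above and that of Hmox1 below. Hmox1 measured 5.52 ± 2.13, G6pdx 4.31 ± 1.27 and Gclc 3.74 ± 0.761 TPM, with overlapping ranges. Slc7a11 was the lowest at 0.369 ± 0.111 TPM and did not overlap any other member, with 24 to 112 estimated reads per library. All differences between groups below were taken on CPM within a gene and tested with edgeR's quasi-likelihood test, with Benjamini-Hochberg adjustment over 15216 genes. A gene is called where the adjusted p is under 0.05.

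**Figure D1:**
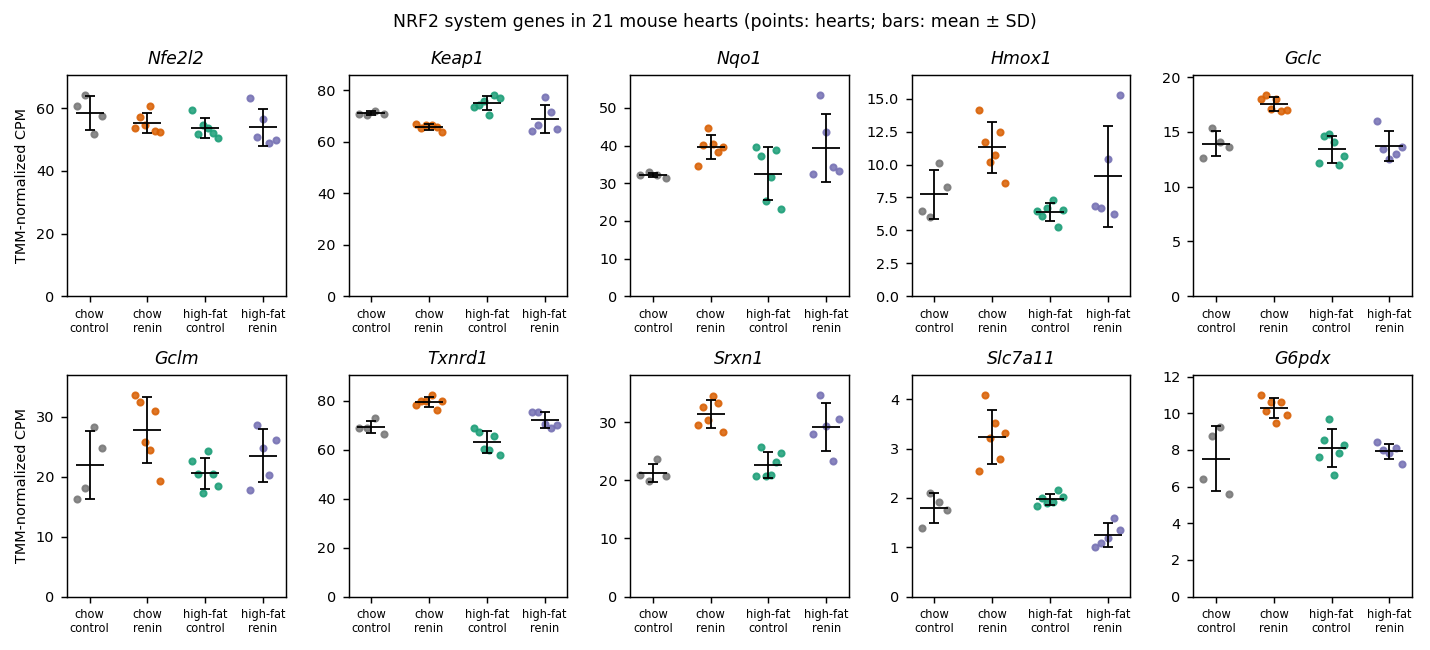
Levels of the 10 genes in each of the 21 libraries, in TMM-scaled counts-per-million on the vertical axis, with 1 panel per gene and the 4 groups side by side. Points are libraries and bars are group means ± SD. Slc7a11 in chow with renin lies at 2.54 to 4.09 CPM, above every library of the other groups, and Srxn1 lies higher in both renin groups than in most control libraries.

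Renin on chow gave the most calls among the 10 genes. Against chow control, 5 rose (Gclc, Txnrd1, Srxn1, Slc7a11 and G6pdx) and none fell, where 13.5% of all genes tested were called in either direction and 10.1% were called higher. In 7 genes the libraries of the 2 groups did not overlap, against 15.1% of all genes. Of these, 6 lay above (10.4% of all genes) and Keap1 lay below (4.75% of all genes). The median log2 difference of the 10 genes was 0.34, beside -0.03 over all genes. Renin on the high-fat diet, against HFD control, called 3 of 10: Txnrd1 and Srxn1 rose and Slc7a11 fell, where 11.1% of all genes were called, 6.07% higher and 5.08% lower. Only Slc7a11 had groups that did not overlap there, against 3.48% of all genes, and 1.52% that lay below. The combined model, HFD with renin against chow control, called 1 of 10, Srxn1, which rose, where 8.31% of all genes were called and 4.05% were called higher, so the count among the 10 was close to this background. In 0 of the 10 did these groups not overlap, against 10.0% of all genes. Diet alone, HFD control against chow control, called 0 of 10 with edgeR and 0 with DESeq2, where 0.0657% of all genes were called. In that comparison 1 of the 10, Txnrd1, had an unadjusted p under 0.05, and in 0 of 10 did the groups not overlap, against 2.42% of all genes. These comparisons share control groups, so their counts are not independent of each other.

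**Figure D2:**
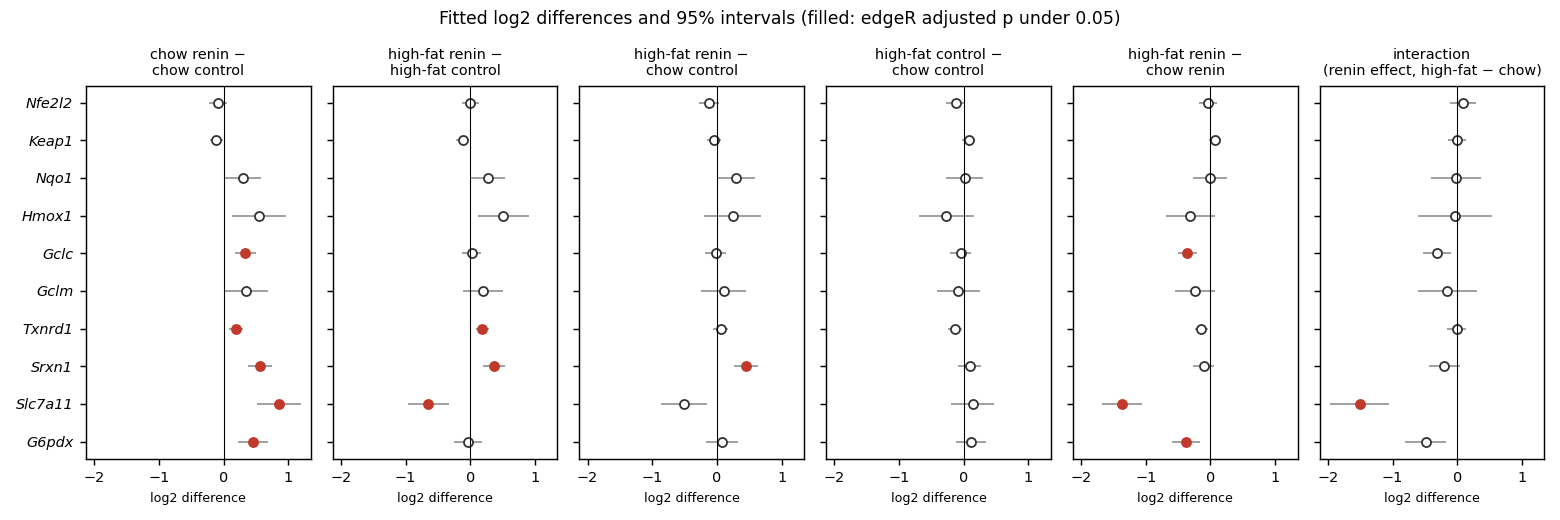
Log2 differences of the 10 genes (horizontal axis) in each comparison, with bars showing the 95% interval and filled points showing genes called at adjusted p under 0.05. The 5 called genes for renin on chow lie to the right of 0, and Slc7a11 lies on opposite sides of 0 for renin on chow (0.86) and renin on the high-fat diet (-0.65).

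Within renin mice, 3 of the 10 genes differed between diets. Gclc, Slc7a11 and G6pdx fell in HFD with renin against chow with renin and none rose, where 22.6% of all genes were called in either direction and 12.8% were called lower. In 4 genes, these 3 and Txnrd1, every HFD renin library was below every chow renin library, against 15.3% of all genes whose groups did not overlap and 9.78% that lay below. The interaction asks whether the renin difference depends on diet. It called 1 of 10, Slc7a11, with a negative value, where 10.4% of all genes were called and 7.30% had a negative value. The renin effects on the other 9 genes were therefore not shown to differ between diets. Among these, Gclc (p 0.00955) and G6pdx (p 0.00586) had an unadjusted p under 0.05 in this test (edgeR).

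The regulator and its inhibitor were called in no comparison. Nfe2l2 (ENSMUSG00000015839, GRCm38 chr2:75675513-75704641, minus strand) measured 60.8, 64.3, 51.6 and 57.6 CPM in the 4 chow control libraries, and 63.1, 50.9, 56.4, 49.0 and 49.8 CPM in the 5 libraries of HFD with renin. Its medians were 54.2 CPM in chow with renin (52.4 to 60.6) and 52.9 CPM in HFD control (50.5 to 59.5). The 4 groups overlapped. Its log2 differences in the 6 comparisons ran from -0.12 to 0.09, with adjusted p from 0.350 to 0.987 (edgeR). The 95% interval for HFD with renin against chow control was -0.27 to 0.03, and that for chow with renin against chow control was -0.23 to 0.06.

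Keap1 (ENSMUSG00000003308, chr9:21229730-21239361, minus strand), the adaptor that hands NRF2 to its ligase, measured 70.7, 70.2, 72.0 and 70.9 CPM in chow control and 63.9 to 67.0 CPM (median 65.9) in chow with renin. The groups did not overlap, yet the log2 difference was only -0.11 ± 0.05 (SE) and was not called (adjusted p 0.185, edgeR). In HFD control Keap1 ranged from 70.4 to 78.2 CPM (median 75.1), and in HFD with renin it measured 64.3, 66.6, 77.2, 71.6 and 64.8 CPM. The difference between these groups was -0.12 ± 0.05 (adjusted p 0.114, edgeR), and it reached an adjusted p of 0.0219 without HFD renin replicate 3, the library at 77.2 CPM. The gene overlaps an antisense gene, Gm16754, and the strand setting of the libraries is not given in the sources used here. The TPM of Keap1 was also divided over several coding transcripts, of which Keap1-201 held 30.34 to 41.64%.

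Glutathione supply starts with cystine import. Slc7a11 (ENSMUSG00000027737, chr3:49892526-50443614, minus strand) encodes xCT, the transport subunit of the cystine and glutamate exchanger. It measured 1.39, 2.11, 1.92 and 1.75 CPM in chow control and 2.54, 4.09, 3.22, 3.52, 2.79 and 3.32 CPM in chow with renin. It measured 1.83, 2.0, 1.90, 1.92, 2.16 and 2.02 CPM in HFD control and 1.01, 1.08, 1.18, 1.6 and 1.36 CPM in HFD with renin. Every chow renin library was above every other library of the study, and every HFD renin library was below every HFD control library.

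Slc7a11 rose with renin on chow by 0.86 ± 0.17 (SE) on the log2 scale, or 1.81-fold (adjusted p 0.000750, edgeR). It fell by 0.65 ± 0.16 with renin on the high-fat diet, to 0.637-fold (adjusted p 0.0123, edgeR). The interaction was -1.51 ± 0.23 (adjusted p 6.98e-05, edgeR), with a 95% interval of -1.97 to -1.05. Between the renin groups it was -1.37 ± 0.16, or 0.387-fold on the high-fat diet (adjusted p 6.59e-07, edgeR). Against chow control, HFD with renin was at -0.51 ± 0.18 and was not called (adjusted p 0.0801, edgeR), with an adjusted p of 0.0331 when HFD renin replicate 4, the library at 1.6 CPM, was left out.

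The estimated reads of Slc7a11 came almost wholly from a coding transcript of 9223 bases, Slc7a11-201, and a retained-intron transcript of 3162 bases, Slc7a11-202. The coding transcript held 12.1 to 13.6 reads per library in chow control, 47.6 to 79.3 in chow with renin, 12.3 to 22.9 in HFD control and 11.4 to 19 in HFD with renin. In TPM it measured 0.050 to 0.066, 0.171 to 0.260, 0.046 to 0.071 and 0.038 to 0.058 in the same order, so only chow with renin stood apart from the other 3 groups. The retained-intron transcript measured 0.199 to 0.370, 0.149 to 0.335, 0.248 to 0.391 and 0.122 to 0.279 TPM, and its 4 groups did not separate in that way. Its mean was 0.305 TPM in HFD control and 0.190 in HFD with renin, while the coding transcript's mean was 0.0593 and 0.0466 TPM. The higher value in chow with renin was thus carried by the coding transcript, and the lower value in HFD with renin lay largely on the retained-intron transcript. These transcript values are given without a test, because Salmon's division of so few reads between transcripts has its own error.

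**Figure D3:**
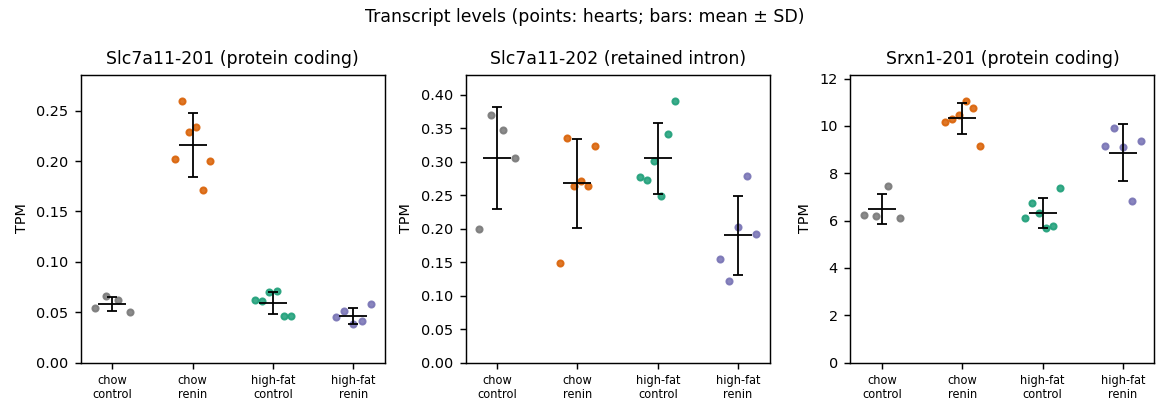
Deposited TPM (vertical axis) of the transcripts Slc7a11-201, Slc7a11-202 and Srxn1-201 in each library, by group, with points for libraries and bars for group means ± SD. The coding transcript Slc7a11-201 lies at 0.171 to 0.260 TPM in chow with renin and at 0.071 TPM or less in the 3 other groups, while the retained-intron transcript Slc7a11-202 overlaps between them.

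When gene counts were rebuilt from TPM and mean transcript length, the rise of Slc7a11 on chow was 0.31 on the log2 scale and was no longer called (adjusted p 0.427, edgeR). The fall on the high-fat diet lost its call when libraries were thinned to the smallest (adjusted p 0.0524, edgeR) and when only the 2 HFD groups were fitted (adjusted p 0.0544, edgeR). The gene overlaps an antisense gene, Gm37854, and several pseudogenes.

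Gclc (ENSMUSG00000032350, chr9:77754535-77794485, plus strand) encodes the catalytic subunit of glutamate-cysteine ligase, the rate-limiting enzyme of glutathione synthesis. It measured 12.6, 15.4, 14.1 and 13.6 CPM in chow control and 16.9 to 18.4 CPM (median 17.5) in chow with renin. It measured 12 to 14.8 CPM (median 13.5) in HFD control and 16, 13.4, 12.5, 13.0 and 13.6 CPM in HFD with renin. The chow renin libraries lay above all 15 others. Gclc rose with renin on chow by 0.34 ± 0.08 on the log2 scale, or 1.26-fold (adjusted p 0.00483, edgeR). On the high-fat diet the renin difference was 0.03 ± 0.08 (95% interval -0.12 to 0.17). HFD with renin was lower than chow with renin by -0.36 ± 0.07 (adjusted p 0.000910, edgeR). The interaction was -0.31 ± 0.11 and missed the threshold (adjusted p 0.0749, edgeR), and 8 alternatives, DESeq2 among them (adjusted p 0.0456), placed it under 0.05.

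Gclm (ENSMUSG00000028124, chr3:122245557-122270732, plus strand) encodes the modifier subunit of the same ligase and was called in no comparison. It measured 16.2, 18.1, 28.3 and 24.8 CPM in chow control and 19.3 to 33.6 CPM (median 28.4) in chow with renin, and these groups overlapped. It measured 17.3 to 24.3 CPM (median 20.5) in HFD control and 17.7, 28.6, 24.7, 20.3 and 26.1 CPM in HFD with renin. The difference with renin on chow was 0.35 ± 0.17, similar in size to that of Gclc, but the wider spread left it uncalled (adjusted p 0.212, edgeR). Its TPM was divided mainly over 3 coding transcripts, and the gene overlaps Gm17494 on the other strand and a pseudogene, Gm6061.

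Srxn1 and Txnrd1, of peroxiredoxin repair and thioredoxin recycling in turn, rose with renin on both diets. Srxn1 (ENSMUSG00000032802, chr2:152105516-152111376, plus strand) encodes sulfiredoxin, which restores overoxidised peroxiredoxins. It measured 21, 19.9, 23.6 and 20.7 CPM in chow control (mean 21.3 ± 1.58 SD). In chow with renin it ranged from 28.4 to 34.5 CPM (median 31.5, mean 31.4 ± 2.39), above every control library of both diets. It measured 20.7 to 25.8 CPM (median 22, mean 22.7 ± 2.22) in HFD control and 27.9, 34.7, 29.4, 23.4 and 30.6 CPM in HFD with renin (mean 29.2 ± 4.09). In HFD with renin, replicate 4 at 23.4 CPM lay within the control ranges, and the other 4 libraries lay above them.

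Srxn1 rose by 0.56 ± 0.09 on the log2 scale with renin on chow, or 1.48-fold (adjusted p 8.21e-05, edgeR). It rose by 0.36 ± 0.08 with renin on the high-fat diet, or 1.29-fold (adjusted p 0.00833, edgeR). It was 1.37-fold higher in HFD with renin than in chow control, by 0.45 ± 0.10 (adjusted p 0.00524, edgeR), and was the only 1 of the 10 called in that comparison. The interaction was -0.20 ± 0.12 (95% interval -0.44 to 0.05, adjusted p 0.372, edgeR). Diet alone gave 0.09 ± 0.09 (adjusted p 0.772, edgeR). The coding transcript Srxn1-201 measured 6.09 to 7.46 TPM in chow control, 9.15 to 11.1 in chow with renin, 5.70 to 7.36 in HFD control and 6.82 to 9.92 in HFD with renin. Counts rebuilt from TPM and mean transcript length gave a difference of 0.35 on the log2 scale with renin on the high-fat diet, which was not called (adjusted p 0.0996, edgeR).

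Txnrd1 (ENSMUSG00000020250, chr10:82833951-82897712, plus strand) encodes cytosolic thioredoxin reductase, which returns electrons from NADPH to thioredoxin. It measured 68.9, 68.9, 72.8 and 66.5 CPM in chow control and 76.2 to 82.4 CPM (median 79.8) in chow with renin, without overlap. It measured 57.7 to 68.8 CPM (median 63.0) in HFD control and 75.5, 75.5, 70.4, 68.7 and 70.1 CPM in HFD with renin. Only HFD renin replicate 4, at 68.7 CPM, fell within the HFD control range. Txnrd1 rose by 0.20 ± 0.05 with renin on chow, or 1.15-fold (adjusted p 0.0161, edgeR), and by 0.19 ± 0.05 with renin on the high-fat diet, or 1.14-fold (adjusted p 0.0217, edgeR). The interaction was -0.01 ± 0.07, with a 95% interval of -0.16 to 0.14.

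Both calls of Txnrd1 depended on settings. The call on chow was lost without chow control replicate 4 (adjusted p 0.0683, edgeR) and with counts rebuilt from TPM and length (0.0867). The call on the high-fat diet was lost in 7 of 34 alternatives. Among these were leaving out HFD renin replicate 1 (adjusted p 0.0942, edgeR) or replicate 2 (0.0652), no filter on low counts (0.0548), rebuilt counts (0.0586) and a fit of only the HFD groups (0.117). Between the renin groups Txnrd1 was lower on the high-fat diet by -0.14 ± 0.05 and missed the threshold (adjusted p 0.0504, edgeR), and 19 of 34 alternatives placed it under 0.05, with adjusted p from 0.00266 with total scaling to 0.0469 without HFD renin replicate 2. The 2 main coding transcripts, Txnrd1-201 and Txnrd1-208, held about even shares of the gene's TPM in the group means. The gene overlaps Eid3 on the same strand and 2 noncoding genes on the other.

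Nqo1 and Hmox1 were called in no comparison, though some alternatives called them. Nqo1 (ENSMUSG00000003849, chr8:107388225-107403206, minus strand) encodes a quinone reductase often used to read NRF2 activity. It measured 32.2, 32.9, 32.3 and 31.4 CPM in chow control and 34.7 to 44.6 CPM (median 39.8) in chow with renin, without overlap. It measured 23.1 to 39.5 CPM (median 34.4) in HFD control and 32.4, 53.5, 43.5, 34.4 and 33.3 CPM in HFD with renin, where the groups overlapped. The spread of Nqo1 was narrow in chow control and wide on the high-fat diet. The difference with renin on chow was 0.30 ± 0.15 (adjusted p 0.212, edgeR), and it was called when only the chow groups were fitted (adjusted p 0.00332, edgeR) and with total scaling (adjusted p 0.0388, edgeR). With renin on the high-fat diet it was 0.28 ± 0.14 (adjusted p 0.198, edgeR).

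Hmox1 (ENSMUSG00000005413, chr8:75093621-75100589, plus strand) encodes haem oxygenase 1, which breaks haem down to biliverdin, iron and carbon monoxide. It measured 6.47, 6.05, 10.1 and 8.29 CPM in chow control and 8.57 to 14.1 CPM (median 11.2) in chow with renin. It measured 5.26 to 7.27 CPM (median 6.51) in HFD control and 6.87, 6.69, 10.4, 6.21 and 15.3 CPM in HFD with renin, where replicates 3 and 5 stood above the other 3. The differences were 0.55 ± 0.22 with renin on chow (adjusted p 0.0991, edgeR) and 0.51 ± 0.20 with renin on the high-fat diet (adjusted p 0.0977, edgeR), with 95% intervals of 0.13 to 0.97 and 0.12 to 0.90. The difference on chow was called without chow control replicate 3 (adjusted p 0.0463, edgeR), and also without HFD renin replicate 5 (adjusted p 0.0231, edgeR), a library outside that comparison which enters through the shared spread. It was called too when only the chow groups were fitted (adjusted p 0.0258, edgeR). The difference on the high-fat diet was called without HFD renin replicate 4 (0.63, adjusted p 0.0354, edgeR). Between the renin groups Hmox1 stood at -0.31 (adjusted p 0.283, edgeR), and at -0.58 without HFD renin replicate 5, where it was called (adjusted p 0.0117, edgeR).

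NADPH, which thioredoxin reductase, glutathione reductase and NQO1 consume, comes in part from the pentose phosphate pathway. G6pdx (ENSMUSG00000031400, chrX:74409483-74429194, minus strand) encodes glucose-6-phosphate dehydrogenase, the entry enzyme of that pathway. It measured 6.42, 8.78, 9.24 and 5.62 CPM in chow control, with replicates 1 and 4 low, and 9.45 to 11 CPM (median 10.4) in chow with renin. It measured 6.63 to 9.70 CPM (median 8.05) in HFD control and 8.43, 8.00, 7.82, 8.09 and 7.25 CPM in HFD with renin. G6pdx rose with renin on chow by 0.46 ± 0.12, or 1.37-fold (adjusted p 0.00966, edgeR), and this call was lost without chow control replicate 4 (adjusted p 0.0643) and with counts rebuilt from TPM and length (adjusted p 0.325). The coding transcript G6pdx-201 measured 1.39 to 2.7 TPM in chow control and 2.83 to 3.73 in chow with renin, without a test. A processed transcript of 580 bases, G6pdx-202, held on average 36.17 and 35.6% of the gene's TPM in these groups. With renin on the high-fat diet the difference was -0.03 ± 0.11 (95% interval -0.25 to 0.18). HFD with renin was lower than chow with renin by -0.38 ± 0.11 (adjusted p 0.0135, edgeR), a call lost with rebuilt counts and with central nervous markers as a covariate. The interaction was -0.49 ± 0.16 (adjusted p 0.0538, edgeR). That interaction was under 0.05 in 8 alternatives, with adjusted p from 0.0155 without chow control replicate 3 to 0.0476 with RLE scaling, and 0.0251 with DESeq2. G6pdx overlaps Ikbkg on the other strand and has a near copy, G6pd2, with which it can share reads.

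Other measures moved with the groups. A clock score, the mean log2 CPM of 5 clock genes minus that of 8 clock output genes, ran from -3.48 to -3.26 in chow control, -3.07 to -2.72 in chow with renin, -3.33 to -3.00 in HFD control and -3.11 to -2.11 in HFD with renin. Group accounted for 57.4% of its variance, and HFD renin replicate 1 was the library at -2.11. With this score as a covariate, Srxn1 (0.49) and Slc7a11 (0.98 on the log2 scale) were called for renin on chow, while Gclc (0.21), Txnrd1 (0.12) and G6pdx (0.36) were not (adjusted p 0.189, 0.293 and 0.134, edgeR). For renin on the high-fat diet, Txnrd1 stood at 0.12, Srxn1 at 0.30 and Slc7a11 at -0.55, none of them called (adjusted p 0.573, 0.364 and 0.376, edgeR). No member was called either for HFD with renin against chow control, where Srxn1 stood at 0.36 (adjusted p 0.540, edgeR) and where 0 genes of all tested were called. Group accounted for 91.9% of the variance of the central nervous score, so that score and renin on chow cannot be told apart, and with it as a covariate none of the 5 genes was called for renin on chow. The differences were then 0.27 for Gclc, 0.37 for Txnrd1, 0.59 for Srxn1, 0.40 for Slc7a11 and 0.47 for G6pdx, with adjusted p from 0.627 to 0.918 (edgeR). Their SEs were 0.165 to 0.502. The same covariate gave, between the renin groups, -0.31 ± 0.21 (SE) for Gclc, -0.98 ± 0.43 for Slc7a11 and -0.39 ± 0.31 for G6pdx, and the interaction of Slc7a11 was -1.02 ± 0.56. None of these 4 was called (edgeR), and their SEs were larger than without the covariate.

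Of the 17 listed partners and regulators of NRF2, all tested, none was called for renin on chow or for diet alone, where 13.5% and 0.0657% of all genes were, and 2 were called for renin on the high-fat diet, where 11.1% of all genes were. In the comparison of the renin groups 3 were called, where 22.6% of all genes were. Nfe2l1 (0.27, adjusted p 0.0141), Mafk (0.34, adjusted p 0.0434) and Dpp3 (0.38, adjusted p 0.00831, edgeR) were higher on the high-fat diet there. In that order their calls were lost in 5, 24 and 3 of 34 alternatives, fits without a single library among them for each gene. Nfe2l1, which encodes the related factor NRF1, was higher in HFD with renin (822 ± 62.5 CPM) than in chow control (667 ± 22.6 CPM), by 0.30 on the log2 scale (adjusted p 0.0315, edgeR). HFD control was at 812 ± 101 CPM, a difference of 0.29 from chow control that was not called (adjusted p 0.193, edgeR), and renin on the high-fat diet gave 0.02 (adjusted p 0.916, edgeR). The call against chow control was lost in 10 of 34 alternatives, 8 of them leaving out a library (adjusted p up to 0.108). With renin on the high-fat diet, Mafk, a small MAF partner of NRF2, rose from 52.1 ± 7.22 to 71.2 ± 11.2 CPM (0.45, adjusted p 0.0190, edgeR), a call lost without HFD renin replicate 1 (adjusted p 0.0794) or 2 (adjusted p 0.0650). Dpp3, whose protein competes with NRF2 for KEAP1, rose from 21.5 ± 1.46 to 26.9 ± 5.74 CPM (0.33, adjusted p 0.0397, edgeR), a call lost in 16 of 34 alternatives (adjusted p up to 0.184 without 1 library). The median of the list in that comparison was 0.142, beside -0.006 over all genes.

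Of 28 glutathione genes, 24 were tested. For renin on the high-fat diet 3 rose and 6 fell, where 6.07% of all genes were called higher and 5.08% lower. For HFD with renin against chow control 2 rose and 4 fell, where 8.31% of all genes were called, and for renin on chow 2 rose and 1 fell, where 13.5% were. The 1 that fell on chow was Gstm2 (-0.26, adjusted p 0.0434, edgeR), a call lost in 21 of 34 alternatives. The export pump gene Abcc1 rose with renin on chow from 43.7 ± 2.31 to 54.3 ± 2.56 CPM (0.31, adjusted p 0.00520, edgeR) and on the high-fat diet from 36.3 ± 4.40 to 47.4 ± 2.73 CPM (0.38, adjusted p 0.00191, edgeR). The glutathione transferase gene Gstm2 was lower in HFD with renin (54.3 ± 9.11 CPM) than in chow control (74.3 ± 3.95 CPM), by -0.45 (adjusted p 0.00281, edgeR). The transferase gene Gsta1 went the other way there, from 1.18 ± 0.146 CPM in chow control to 2.94 ± 1.21 in HFD with renin (1.31, adjusted p 0.00528, edgeR). Abcc4 was the other gene that rose in that comparison, and Gstm1, Gstp1 and Gstp2 were called lower with Gstm2. Gstp1, another transferase gene that shares sequence with Gstp2, was lower in HFD with renin (29.8 ± 4.08 CPM) than in HFD control (39.9 ± 5.79 CPM), by -0.42 (adjusted p 0.00380, edgeR). Ggt5, a gamma-glutamyl transferase family gene, fell in the same comparison from 11.8 ± 1.20 to 7.36 ± 1.31 CPM (-0.68, adjusted p 0.00130, edgeR). The call of Ggt5 was lost with counts rebuilt from TPM and length and with the clock score as a covariate.

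Of 15 thioredoxin and peroxiredoxin genes, 1 rose and 1 fell with renin on chow, a share near the 13.5% of all genes called. Sesn2, a stress-induced sestrin, rose from 4.69 ± 0.630 to 6.06 ± 0.490 CPM (0.37, adjusted p 0.0286, edgeR), a call lost in 9 of 34 alternatives (adjusted p up to 0.123 without 1 library). Txn2, mitochondrial thioredoxin, fell from 126 ± 7.33 to 105 ± 4.10 CPM (-0.27, adjusted p 0.00216, edgeR). With renin on the high-fat diet 1 of the 15 was called, against 11.1% of all genes. It was Prdx5, a peroxiredoxin gene, lower at up to 246 CPM against 233 to 336 CPM (-0.27, adjusted p 0.0318, edgeR), and this call too was lost in 9 of 34 alternatives (adjusted p up to 0.0940 without 1 library).

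Of 17 genes for quinone, carbonyl and xenobiotic enzymes, 16 were tested. With renin on chow Ugdh, Akr1b8 and Ces1g rose and Nqo2, a second quinone reductase gene, fell, where 10.1% of all genes were called higher and 13.5% in either direction. Ugdh, whose enzyme makes UDP-glucuronate, rose from 16.5 ± 1.63 to 25.2 ± 1.71 CPM (0.62, adjusted p 8.31e-05, edgeR) and measured 16.5 ± 2.64 and 16.8 ± 1.63 CPM in the HFD groups. Its interaction was -0.59 (adjusted p 0.00557, edgeR). Ces1g, a carboxylesterase gene, had 0 to 1 reads per library in chow control, 8 to 23 in chow with renin, 2 to 7 in HFD control and 2 to 5 in HFD with renin. At such counts it passed the filter on low counts through chow with renin, so its call is no support for a rise of the list. Ugdh was also lower in HFD with renin than in chow with renin, as was Aldh3a1, an aldehyde dehydrogenase gene, at 0.833 ± 0.354 against 2.30 ± 0.325 CPM (adjusted p 0.00834, edgeR). Akr1b3, an aldose reductase gene, was higher there, at 164 ± 4.01 against 140 ± 7.40 CPM (0.23, adjusted p 0.00702, edgeR), with an adjusted p of 0.0513 without chow renin replicate 1. With renin on the high-fat diet 0 of the 16 rose and 2 fell, Cbr1 and Ces1d, where 6.07% of all genes were called higher and 5.08% lower.

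Of 12 NADPH supply genes, 11 were tested, and 1 was called in each of renin on chow, renin on the high-fat diet and HFD with renin against chow control, near the shares of all genes called. Diet alone and the interaction also called 1 each, Hk1, where 0.0657% and 10.4% of all genes were called. Me1, cytosolic malic enzyme, was higher in HFD with renin (159 ± 18.2 CPM) than in chow control (116 ± 3.80 CPM), by 0.46 (adjusted p 0.00616, edgeR). HFD control measured 143 ± 20.1 and chow with renin 120 ± 11.7 CPM, and neither diet alone (0.30, adjusted p 0.243, edgeR) nor renin on the high-fat diet (0.16, adjusted p 0.270, edgeR) was called. Me1 was called higher in HFD with renin than in chow with renin (adjusted p 0.00162, edgeR), a call lost in 1 of 34 alternatives. It was the only 1 of the list called there, where 22.6% of all genes were called. Me2, a mitochondrial malic enzyme, was higher in HFD with renin (10.8 ± 2.47 CPM) than in HFD control (6.99 ± 0.424 CPM), by 0.63 (adjusted p 0.00371, edgeR). The difference of Me2 ran from 0.337 to 0.735 over the alternatives, and its call was lost with rebuilt counts and with the clock score. Hk1, hexokinase 1, fell with renin on chow from 201 ± 16.8 to 163 ± 6.56 CPM (-0.30, adjusted p 0.00202, edgeR), and was not called when libraries were scaled by their totals alone (adjusted p 0.0703). It measured 159 ± 10.4 CPM in HFD control and 175 ± 14.7 in HFD with renin. Diet alone gave -0.34 (adjusted p 0.0499, edgeR), a call lost in 27 of 34 alternatives, and the interaction was 0.44 (adjusted p 0.00154, edgeR). Of 13 haem and iron genes, 12 were tested, and 1 was called for renin on chow and 2 for renin on the high-fat diet, against 13.5% and 11.1% of all genes. Alas1, the rate-limiting enzyme of haem synthesis, was lower in chow with renin (101 ± 16.7 CPM) than in chow control (179 ± 65.5 CPM), by -0.83 (adjusted p 0.0164, edgeR). Chow control spread from 118 to 242 CPM, and the call was lost without its replicate 1 (adjusted p 0.0992) or 2 (adjusted p 0.0888).

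Fth1, the ferritin heavy chain, fell with renin on the high-fat diet from 1019 ± 73.1 to 841 ± 68.7 CPM (-0.28, adjusted p 0.00660, edgeR). This call was lost when only the groups compared were fitted and with the clock score as a covariate. Between the renin groups, Hp, the haptoglobin gene, was lower on the high-fat diet at 2.15 ± 1.20 against 8.55 ± 1.06 CPM (-1.98, adjusted p 0.000465, edgeR). Tfrc, the transferrin receptor, was higher there at 64.6 ± 70.3 against 19.7 ± 4.29 CPM (1.71, adjusted p 0.0130, edgeR). HFD with renin ranged from 26.4 to 190 CPM, and without its replicate 1 the difference was 0.74 and was not called (adjusted p 0.0937).

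**Figure D4:**
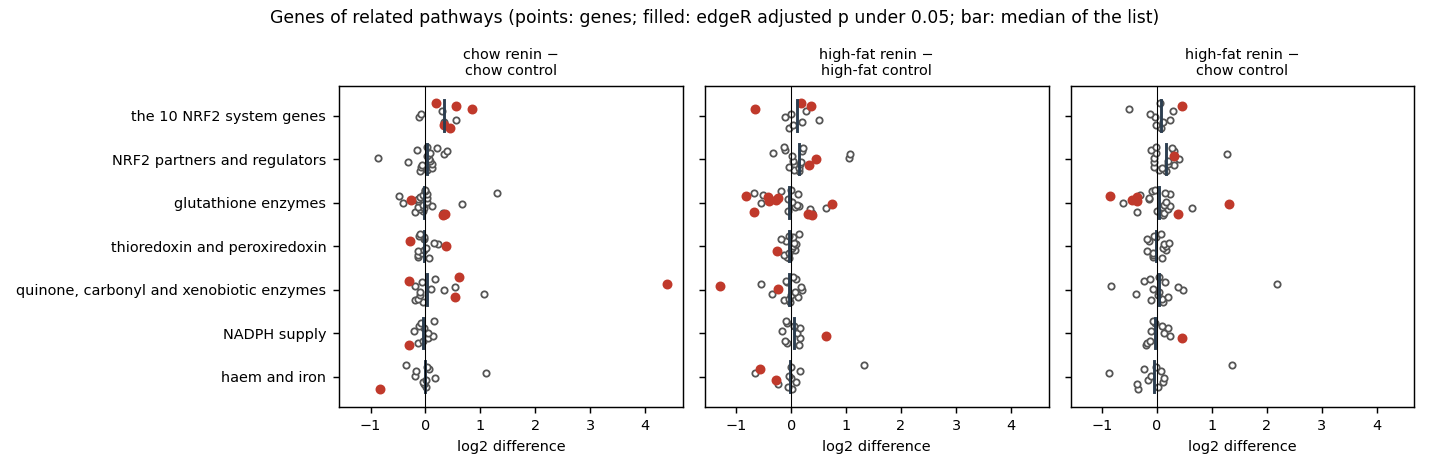
Log2 differences (horizontal axis) of the 10 genes and of the tested genes of the 6 other pathway lists for renin on chow, renin on the high-fat diet, and HFD with renin against chow control, with called genes filled and a bar at each list's median. Most genes lie near 0, the point beyond 4 is Ces1g, whose fold against almost no reads has no fixed size, and the called glutathione genes on the high-fat diet lie on both sides of it, 3 higher and 6 lower.

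The pattern over the 21 libraries was compared between genes as the root mean square difference of log2 CPM scaled to mean 0 and SD 1, where a smaller value is more alike and the median over all genes was about 1.39 to 1.41. Nfe2l2 was closest to Usp38 (0.666), Ociad1 (0.695) and Larp4 (0.697). Srxn1 was closest to Ppp1r9b (0.464), Chaf1a (0.504) and Spire1 (0.507). Slc7a11 was closest to Slc6a17 (0.395), A830018L16Rik (0.407) and Stum (0.418). Among the 10 genes themselves the closest pairs were Hmox1 with Gclm (0.695), Gclc with G6pdx (0.709) and Txnrd1 with Srxn1 (0.723).

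The authors' deposited table holds their own comparison for HFD with virus, and the group it was set against is not stated there. In the authors' deposited table Srxn1 had a log2 fold change of 0.3615 with an adjusted p of 0.01137. Slc7a11 had -0.2333 with an adjusted p of 0.111 in the authors' deposited table. The other 8 genes had adjusted p from 0.3 to 0.9275 in the authors' deposited table, so Srxn1 was the only 1 of the 10 under 0.05 in it.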

How the data were processed

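RNA of 21 mouse heart libraries was sequenced. The authors deposited, per library, Salmon transcript tables with expected counts (estimated reads) and TPM, per the file headers, and Salmon 1.10.2, DESeq2 1.40.2 and the builds GRCm38 and mm10 are named in the submitters' processing notes. A deposited gene matrix holds a signal whose unit is not stated and served only to find the genes. The authors' deposited comparison table gives log2 fold changes and p-values, per the file headers, with no reference group named. Library strandedness is not given in the sources used here. Sample columns that matched no sample numbered 0.

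Transcripts were matched to GENCODE M21 genes by identifier (97.95% of 119215 transcripts, and 0.8543 to 0.9253% of reads unmatched), and estimated counts were summed per gene and rounded. edgeR 4.0.16 (R 4.3.3) fitted all 21 libraries with a term per group after TMM scaling and its filter on low counts, which kept 15216 of 23718 genes with reads and 99.96% of reads. A quasi-likelihood F test with Benjamini-Hochberg adjustment over these genes gave the calls, at adjusted p under 0.05. The common biological coefficient of variation was 0.1538. Intervals are the fitted difference and its SE under a normal approximation. Precision is set by 4 to 6 libraries per group and, for Slc7a11, by 24 to 112 reads per library. Across 46 pairs of libraries of a group, counts differed by 3.51 to 55.6 times sampling noise (chi-square per degree of freedom), so no library was a repeat.

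The 10 genes, the other lists and the marker lists were chosen with earlier results of these data known, so a pattern in them is not independent support. From each other pathway list, up to 4 genes with the lowest adjusted p over the 6 comparisons were named if called at least once, and the nearest genes in pattern were named for Nfe2l2 and the 2 members with the lowest adjusted p. Other genes named among the called were chosen after their values were seen. Alternatives were RLE, upper-quartile and total scaling, no filter, counts rebuilt from TPM and length, thinning, only the groups compared, a replicate block, clock and central nervous scores as covariates, DESeq2 1.42.0 and leaving out each library. After the data were seen, an atrial score covariate and a fit without HFD control replicate 6 and HFD renin replicate 1 were added. Macrophage markers summed to 137 to 232 CPM over the libraries, and blood and adipose markers to 557 to 1318 and 297 to 561 CPM.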

Additional observations from a re-analysis of the deposited data

Results flagged for a closer look

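The renin difference of Slc7a11 differed between diets: on chow it was 0.86 on the log2 scale, with the high-fat diet it was -0.65, and the interaction was -1.51 ± 0.23 (SE, adjusted p 6.98e-05, edgeR). All 6 chow renin libraries lay above the 4 chow control libraries, and all 5 HFD renin libraries lay below the 6 HFD control libraries. It kept its direction in 33 of 33 alternatives and its call in all of them but the fit that adjusts for central nervous markers, where it was -1.02 ± 0.56 (SE, adjusted p 0.999). In 40 checks of a group of 4 to 6 libraries of the 10 genes, 0 found a library far from its group.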

How the results depend on the processing

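Of 2030 values of the 10 genes under an alternative, 1954 kept their call or lack of it, 32 lost a call, 44 gained 1, and 0 called values changed sign. The count called for HFD with renin against chow control was 1, with 0 under the clock score and 1 to 2 when a library was left out, the 2 without HFD renin replicate 4. For renin on chow it was 5. Counts rebuilt from TPM and length gave 2, the clock score 2 and the central nervous score 0. Total scaling gave 6, and fitting only the groups compared gave 7. The count was 3 to 6 when a library was left out, the 3 without chow control replicate 4. For renin on the high-fat diet it was 3, with 1 under rebuilt counts, 1 when only the groups compared were fitted and 0 under the clock score. It was 1 without HFD control replicate 6 and HFD renin replicate 1, and 2 to 4 when a library was left out. No filter on low counts gave 2, as did thinning. Between the renin groups it was 3, with 0 under the central nervous score, where Gclc stood at -0.31, Slc7a11 at -0.98 and G6pdx at -0.39. Rebuilt counts gave 2, without G6pdx, and leaving out a library gave 3 to 4. RLE, upper-quartile and total scaling, thinning, DESeq2 and the clock score each gave 4. So did the replicate block, a fit of only the groups compared and leaving out both libraries named above. For the interaction it was 1, with 2 under RLE scaling, 3 under upper-quartile scaling, 2 after thinning, 3 with DESeq2, 0 under the central nervous score, 2 under the atrial score, 2 without the 2 libraries named above and 1 to 3 when a library was left out, the 3 without chow control replicate 2.

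Same-numbered libraries were taken as unpaired. Of 28 correlations of their deviations, 11 exceeded 0.1 (range -0.226 to 0.421), a cut-off chosen for this check. These correlations alone do not settle whether same-numbered libraries were handled together. All 6 correlations among the libraries numbered 3 were over 0.1 (0.220 to 0.421), and those 4 libraries had atrial scores of 5.10 to 6.07. With the replicate block the interaction count was 2, and that between the renin groups was 4 in place of 3, and the other 4 counts did not move.

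Under the central nervous score 5 named genes changed sign: Alas1 for renin on chow (0.190), and between the renin groups Tfrc (-0.981), Dpp3 (-0.0299), Akr1b3 (-0.0257) and Aldh3a1 (0.455). Over all genes that score left 32 calls of 2048 for renin on chow, 36 of 3440 between the renin groups and 23 of 1589 for the interaction. The clock score left 0 of 1265 for HFD with renin against chow control and 11 of 1696 for renin on the high-fat diet. Fitting only the groups compared left 549 calls for renin on the high-fat diet, rebuilt counts left 1078 and leaving out both libraries left 628. The cause was not tested. The share of calls that were higher depended on scaling: for renin on chow it was 75.0%, and 86.0% by upper quartile and 96.2% by totals. Between the renin groups it was 43.3%, then 27.3% and 17.9%, for renin on the high-fat diet 54.4% and 79.1% by totals, for the interaction 30.1%, then 19.0% and 21%, and for diet alone 20.0% and 8.57% by totals. No scaling moved the median of all genes by over 0.0965.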
